A study of Mus musculus with 3 samples.

Results

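Interferon-stimulated genes and the immunity GTPases were described in activated regulatory T cells of the mouse. The set holds 43 named genes, chosen by symbol and matched through the GENCODE M21 annotation to the deposited gene tables of all 3 libraries. All 43 were found, of 55536 annotated genes, and 42 are annotated as protein-coding; Mx2 is annotated as a polymorphic pseudogene. Of the members, 14 encode GTPases (Mx, guanylate-binding and immunity-related), 2 encode the type I interferon receptor, and 27 encode other interferon-induced proteins.

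Type I interferons bind a receptor made of Ifnar1 and Ifnar2, whose kinases Jak1 and Tyk2 activate a transcription factor complex that includes Irf9. That complex binds an interferon-stimulated response element (ISRE) in target promoters, while interferon-gamma acts mainly through a gamma-activated site (GAS). The targets include sensors of foreign RNA, proteins that block viral replication, and large GTPases that attack the vacuoles of intracellular bacteria and parasites.

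Regulatory T cells are Foxp3-dependent CD4 T cells that restrain immune responses. The cells were primary cells of a male mouse, adult at 9 weeks, of the strain labelled Foxp3GFP-DTRCD4CreERT2R26tdTomato; the way they were activated or sorted is not given in the sources used here. Polyadenylated RNA was sequenced in 3 libraries, recorded as technical replicates 1, 2 and 3 of 1 biosample, which form 1 group with no resting, untreated or other cells to set against it. Levels are therefore described without a contrast between conditions. All SDs (n = 3) and p-values cover differences among libraries of a single biosample, which can be technical, and not differences among animals.

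Gene-level estimated counts totalled 20783676, 21206219 and 18496690 in replicates 1, 2 and 3. Foxp3, which defines the lineage, averaged 90.1 TPM (transcript abundance scaled to transcript length and library size), and all 6 regulatory T cell markers and all 6 T cell markers reached 1 TPM in every library. Among markers of other cells, the summed level ranged between 908.58 and 1270.09 TPM for 5 erythroid genes, between 112.38 and 165.46 TPM for 8 macrophage and monocyte genes, and between 48.46 and 53.78 TPM for 6 B cell genes. The neutrophil, NK cell and conventional dendritic cell lists summed to at most 3.13 TPM in any library, and the neutrophil gene S100a8 was at 0 in all of them. In bulk RNA, a few cells with much of a transcript and many cells with little of it cannot be told apart.

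All 43 members were detected at 1 TPM or more in every library, against 47.3% of all protein-coding genes. Their median level was 88.3 ± 3.21 TPM (SD, n = 3), against 0.797 TPM for all 22028 protein-coding genes and 26.05 TPM for the 10425 protein-coding genes that met the same detection rule. The members were chosen with earlier results of these data known, so these comparisons describe the set and are no test. In single libraries the members' median was 85.3, 91.7 and 88.0 TPM. The 43 means ran between 2.93 TPM for Mx2 and 664 TPM for Samhd1, and 18 of them reached 100 TPM. The plot of member levels by role shows that most of this range lay between and within families, while the libraries lay close together.

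**Figure D1:**
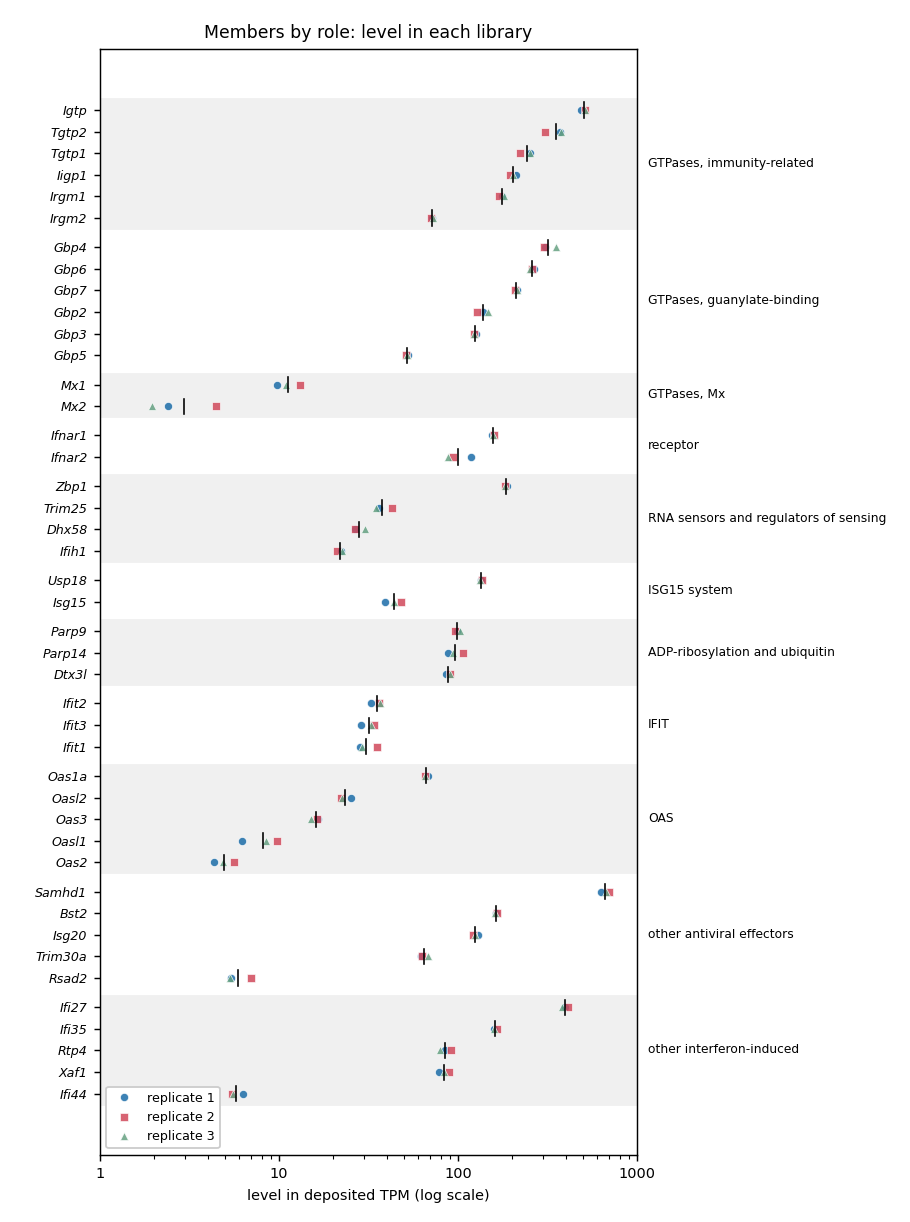
Level of each of the 43 members in deposited TPM (log scale) by role. Points are the 3 libraries and vertical ticks their means; the immunity-related and guanylate-binding GTPases all lie above 50 TPM, while the Mx genes, Oas2, Oasl1, Rsad2 and Ifi44 lie below 15 TPM.

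Within the set, the immunity GTPases had the higher median level. Their median was 190 ± 6.30 TPM over 14 genes, against 63.4 ± 2.10 TPM over the 27 other interferon-stimulated genes with the receptor left out. On the log2(TPM + 0.1) scale the difference between these medians was 1.64, 1.54 and 1.54 in replicates 1, 2 and 3, with a mean of 1.57 ± 0.06 (SD, n = 3). The difference was 1.16 with means of log2 values in place of medians, and 1.098 without the members that share much of their sequence with another gene. These are different genes in the same libraries, so the difference is a description and carries no test. It belongs to the genes of this set. Outside the set, the median was 73.7 TPM for 12 further guanylate-binding and immunity-related genes. For 31 further interferon-stimulated genes it was 69.8 TPM.

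The immunity-related GTPases (IRG proteins) are interferon-gamma-inducible proteins of the mouse that load onto pathogen vacuoles, and the subfamily of Irgm1, Irgm2 and Igtp (also called Irgm3) regulates the others. Igtp was the most abundant GTPase of the set, with 487.93, 510.66 and 514.77 TPM in replicates 1, 2 and 3. Tgtp2 had 372.98, 306.50 and 378.47 TPM, and Tgtp1, which with Tgtp2 encodes the vacuole-binding protein Irgb6, had 253.92, 220.61 and 250.93 TPM. Both Tgtp genes were lowest in replicate 2. Iigp1, which encodes the vacuole-binding protein Irga6, averaged 204 ± 7.63 TPM. Among the other regulators, Irgm1 averaged 175 ± 6.15 TPM and Irgm2 71.5 ± 1.05 TPM, so that the 3 regulators spanned a wider range than the 3 effectors.

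The split between Tgtp1 and Tgtp2 is uncertain because the genes are near-identical copies. Of all 50-base windows in the Tgtp2 transcripts, 86.6% also occur in another gene, and for Tgtp1 the share is 81.2%. Summed over both genes the level was 626.9, 527.11 and 629.4 TPM, a mean of 594 ± 58.3 TPM. A second deposited table of whole-number counts gave the pair 496, 489 and 492 counts, although the first table assigned them 19105.8, 17124.8 and 17632.8 estimated counts. Relative to the typical gene, the second table held 0.0435 times as much of Tgtp2 and 0.0905 times as much of Tgtp1. Of 40 members compared, 6 had less than 0.5 of the typical ratio between the tables, against 18.1% of 9314 genes, namely Tgtp2, Tgtp1, Igtp, Gbp4, Ifit3 and Samhd1. Samhd1, at 0.465 of the typical ratio, has 1.76% of its 50-base windows in another gene. Some abundant genes outside the set were low there too, such as Ly6e at 0.0462 and Cd3e at 0.109. How the second table treats reads that match several genes is not given in the sources used here, and the cause of the low ratios was not tested.

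Guanylate-binding proteins (GBPs) are large GTPases that assemble on pathogen membranes and open them to cytosolic sensors. All 6 member Gbp genes were abundant, with a median of 175 ± 6.48 TPM. Gbp4 had 304.67, 304.15 and 350.48 TPM in replicates 1, 2 and 3. Gbp6 had 267.17, 260.04 and 253.46 TPM, and Gbp7 had 212.35, 208.39 and 214.19 TPM. Gbp4 was highest in replicate 3 and Gbp6 in replicate 1, while the Gbp7 values lay close together. Gbp2 averaged 138 ± 10.01 TPM, Gbp3 124 ± 2.27 TPM and Gbp5, a GBP known to promote inflammasome activation, 52.0 ± 0.792 TPM. The 4 members in the chromosome 3 cluster spanned a 4.07-fold range of mean TPM, and the 2 members in the chromosome 5 cluster a 1.23-fold range. Both clusters hold further Gbp genes outside the set, which these ranges leave out. Of the 50-base windows of Gbp6, 70.7% occur in another gene, chiefly Gm43302 and Gbp10, so its level depends on how shared reads were divided.

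The Mx GTPases, dynamin-like proteins that block viral ribonucleoproteins, stood far below the other GTPases. Mx1 averaged 11.2 ± 1.69 TPM. Mx2 had 2.40, 4.42 and 1.96 TPM in replicates 1, 2 and 3, the lowest mean of all members, and its level in replicate 2 was above those of both other libraries. Laboratory strains of mice commonly carry disrupted Mx genes.

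Of 12 further guanylate-binding and immunity-related genes outside the set, 10 reached 1 TPM in every library, and their median was 73.7 TPM. Ifi47 (Irgd) averaged 481 TPM, Gvin1, a very large interferon-inducible GTPase, 159 TPM and Gbp9 147 TPM. The lowest was Irgc1, a relative known from the testis, at 0.200 TPM.

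Both receptor subunits were expressed. Ifnar1 had 154.80, 158.99 and 156.52 TPM in replicates 1, 2 and 3. Ifnar2, the subunit that Usp18 binds, had 118.36, 93.37 and 88.02 TPM. The Ifnar1 values lay close together, whereas replicate 1 stood above the others for Ifnar2, and no Ifnar2 value reached the lowest Ifnar1 value. For the interferon-gamma receptor, Ifngr1 averaged 413 TPM, Ifngr2, the subunit that recruits Jak2, 13.3 TPM, and Jak2 itself 9.54 TPM.

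The receptor's signalling genes were present throughout. All 11 listed genes reached 1 TPM in every library. Ptprc, the phosphatase CD45, averaged 1409 TPM and the kinase Jak1 403 TPM, and the feedback inhibitor Socs1 was the lowest at 11.2 TPM. Of 13 genes of nucleic acid sensing, 11 reached 1 TPM in every library, led by Tmem173 (the adaptor STING) at 502 TPM, the transcription factor Irf3 at 203 TPM and the RNA-editing enzyme Adar at 113 TPM. Tlr9, a receptor for unmethylated DNA, was at 0.0133 TPM.

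Interferon ligands were at or near 0, apart from Ifng. Ifnb1, Ifna1, Ifna2, Ifna5, Ifna11, Ifnk, Ifne, Ifnl2 and Ifnl3 had no count in any library; a count of 0 allows up to 3 counts, which is 0.144, 0.141 and 0.162 CPM (counts relative to the library total) in replicates 1, 2 and 3. Ifna4 was listed at 0.15 TPM in replicate 1 and at 0 in the others. Ifng, the type II interferon, had 14.49, 8.59 and 17.41 TPM, lowest in replicate 2. Siglech, a defining marker of plasmacytoid dendritic cells, which are known as producers of type I interferon, averaged 0.403 TPM. Of the 7 listed markers of these cells, 4 reached 1 TPM in every library, namely Bst2 at 163 TPM, which is itself a member, Ccr9 at 6.82 TPM, Tcf4 at 6.19 TPM and Runx2 at 2.17 TPM. The plot of levels along the pathway sets the ligands beside the members.

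**Figure D2:**
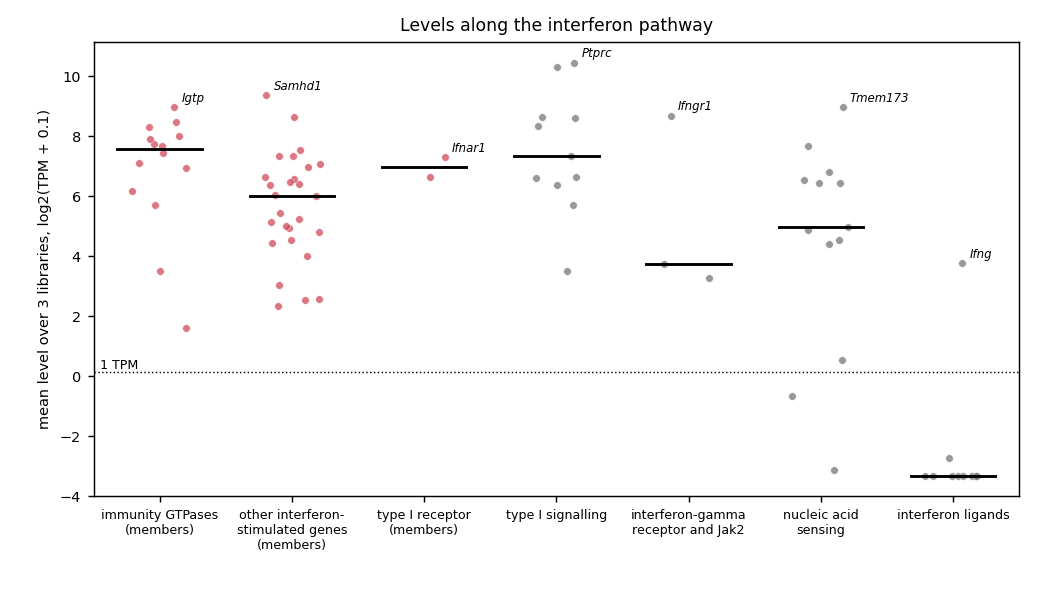
Mean level over 3 libraries on the log2(TPM + 0.1) scale for the members (red) and other listed pathway genes (grey), 1 point per gene, with the median of each list as a black line and a dotted line at 1 TPM. Of the 11 ligands, Ifng alone lies above 1 TPM; all members lie above it.

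The ISG15 system differed between its members. Isg15, a ubiquitin-like protein that is conjugated to other proteins, had 38.95, 47.88 and 43.98 TPM in replicates 1, 2 and 3, highest in replicate 2. Usp18, the protease that removes ISG15 and restrains the receptor through Ifnar2, averaged 134 ± 2.30 TPM. Its lowest library lay above the highest for Isg15.

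The sensors were led by Zbp1, a receptor for Z-form nucleic acids, at 185 ± 2.22 TPM. Trim25, a ubiquitin ligase of the RIG-I pathway, averaged 37.8 ± 4.17 TPM. The RNA helicases Dhx58 (LGP2) and Ifih1 (MDA5) averaged 27.8 ± 2.24 and 21.8 ± 0.739 TPM. Dhx58 shares 141 exonic bases with Dhx58os on the opposite strand, which had no count.

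The ADP-ribosylation genes stood at similar levels. Parp9 averaged 99.1 ± 3.27 TPM, its partner Dtx3l, a ubiquitin ligase that forms a heterodimer with Parp9, 88.3 ± 2.62 TPM, and the mono-ADP-ribosyltransferase Parp14 95.8 ± 9.63 TPM. They lie together on chromosome 16 (GENCODE M21 on mm10, chr16:35832874-35972605), with a 1.12-fold range of mean TPM. Parp9 and Dtx3l start 681 bases apart on opposite strands and overlap over 458 exonic bases; without a stated strand setting, reads in the overlap cannot be told apart.

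The IFIT proteins, which bind foreign RNA and stop its translation, stood at nearly equal levels. Ifit2 averaged 35.2 ± 2.32 TPM, Ifit3 31.7 ± 2.86 TPM and Ifit1, which recognises caps without ribose methylation, had 28.17, 35.10 and 29.09 TPM in replicates 1, 2 and 3. These 3 neighbours on chromosome 19 spanned a 1.14-fold range. Of the 50-base windows of Ifit3, 51.2% occur in Ifit3b, itself at 5.91 TPM.

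The OAS enzymes, which make the oligoadenylates that activate RNase L, covered a wide range of levels. Oas1a averaged 66.2 ± 1.30 TPM, Oasl2 23.3 ± 1.68 TPM and Oas3 16.003 ± 0.802 TPM. Oasl1, which lacks synthetase activity, had 6.21, 9.76 and 8.48 TPM in replicates 1, 2 and 3, and Oas2 had 4.35, 5.59 and 4.85 TPM. Both were highest in replicate 2 and lowest in replicate 1. The members Oas1a, Oas2 and Oas3 of chromosome 5 spanned a 13.4-fold range of mean TPM, between Oas2 and Oas1a. Oas relatives outside the set are not in this range. Of the 50-base windows of Oas1a, 57.6% occur in another gene, Oas1g or Oas1b. Of 11 further OAS and IFIT family genes, 5 reached 1 TPM in every library, led by Ifit1bl1 at 112 TPM, Oas1b at 24.7 TPM and Oas1c at 11.8 TPM, and Oas1f, Oas1h and Ifi44l were at 0.

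Among the other antiviral effectors, Samhd1, a hydrolase that depletes the nucleotides used by viral polymerases, was the most abundant member, with 626.56, 694.77 and 669.94 TPM in replicates 1, 2 and 3, and ranked 166 of all protein-coding genes. Bst2 (tetherin), which holds budding virions at the cell surface, averaged 163 ± 2.67 TPM, the exonuclease Isg20 125 ± 4.35 TPM and Trim30a, a TRIM family ubiquitin ligase of the mouse, 64.2 ± 3.52 TPM. Rsad2 (viperin), which makes a chain-terminating nucleotide, had 5.41, 6.93 and 5.35 TPM, with replicate 2 above both others. The effectors thus ranged from one of the most abundant members to one of the least.

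Of the remaining members, Ifi27 had 396.00, 410.98 and 379.80 TPM in replicates 1, 2 and 3. Ifi35 averaged 162 ± 3.35 TPM, Rtp4, a receptor chaperone known to inhibit flaviviruses in mammals, 85.1 ± 6.31 TPM, and Xaf1, a partner of the apoptosis inhibitor XIAP, 83.7 ± 5.13 TPM. Ifi44 had 6.29, 5.47 and 5.54 TPM, again near the low end. For Ifi35, 16.8% of exonic bases overlap the antisense gene Gm11626, which averaged 4.17 TPM. Of 31 further interferon-stimulated genes outside the set, 30 reached 1 TPM in every library, led by Ly6e at 3560 TPM, the immunoproteasome subunit Psmb8 at 1321 TPM and Sp100 at 760 TPM, with Ifitm1 lowest at 0.457 TPM.

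Many members differed between the libraries by more than counting noise, by small amounts. A chi-square test of homogeneity on rounded estimated counts, with Benjamini-Hochberg adjustment over 14641 genes at a threshold of 0.05, called 24 of 43 members (55.8%). The background was 44.9% of all genes tested, and 55.4% of genes with a mean count of 100 or more, a level that 42 members reached. The members' share was thus near that of genes of like count. Their median coefficient of variation was 5.42%, against 2.00% from counting alone. Without replicate 2 the test called 14 members, beside 27.7% of all genes tested. On the second gene table it called 8 of 41 members, beside 23.2% of all genes tested there.

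The largest ratio of highest to lowest CPM among called members with a mean count of 100 or more was that of Rsad2, with 234, 360 and 209 counts in replicates 1, 2 and 3 and a ratio of 1.51 (adjusted p = 3.64e-07). Ifnar2 had 3209, 2760 and 2098 counts and a ratio of 1.36 (adjusted p = 1.68e-26). Replicate 2 was highest for Rsad2, whereas Ifnar2 was highest in replicate 1 and lowest in replicate 3. The ratio was 1.32 for Oas2 (adjusted p = 0.00724), 1.28 for Ifit1 (adjusted p = 1.33e-08) and 1.26 for Isg15 (adjusted p = 0.0107), each highest in replicate 2 and lowest in replicate 1. Rsad2, Ifnar2, Oas2 and Ifit1 were also called in the second table, as were Trim25, Parp14, Gbp4 and, there alone, Mx2, with 57, 76 and 37 counts. For some abundant genes that table held nearly equal counts in all libraries, such as 1255, 1259 and 1256 for Cd3e. Gbp4 had 2331, 2397 and 2330 counts there, against library totals of 6288764, 6209287 and 5746072. Near-equal counts can be called when set against unequal totals, so the Gbp4 call is no second reading of the first table. The cause of the near-equal counts was not tested.

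Among the 24 called members, 3 were highest in replicate 1, 15 in replicate 2 and 6 in replicate 3. Among all genes that differed, these shares were 38.1% for replicate 1, 31.7% for replicate 2 and 30.2% for replicate 3. Most members that were highest in replicate 2 were other interferon-stimulated genes. Of 14 called genes other than GTPases and receptor, 12 were highest in replicate 2 and 10 were lowest in replicate 1, all 3 IFIT genes among them. Of 8 called GTPases, 2 were highest in replicate 2 and 4 in replicate 3. Scaled by TMM or by DESeq2 size factors, 12 or 13 of those 14 genes were highest in replicate 2. By the second table's counts it was 10 of 14, beside 26.4% of all genes that differed. For genes with near-equal counts there, the highest library can follow the library totals. Outside the set, 23 other interferon-stimulated genes were called, of which 4, 10 and 9 were highest in replicates 1, 2 and 3. Of these 23, 13 were lowest in replicate 1. For the 10 called signalling genes, the numbers highest in replicates 1, 2 and 3 were 3, 1 and 6. No test of the members' split was made, and the plot of library deviations shows it gene by gene.

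**Figure D3:**
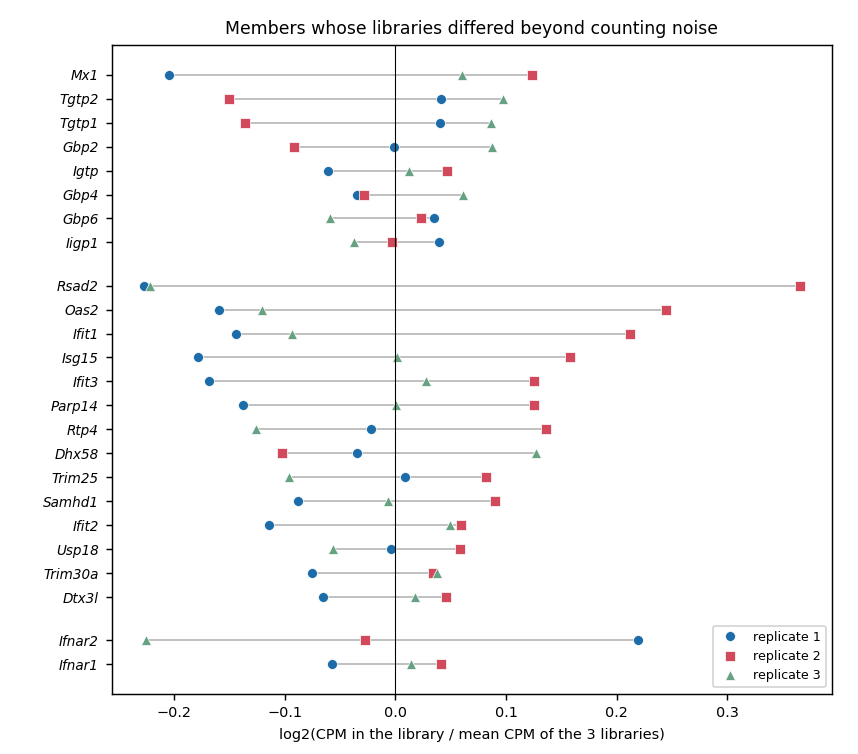
CPM of each library relative to the mean of the 3 libraries, on a log2 scale, for the 24 members called as different; GTPases stand at the top, other interferon-stimulated genes in the middle and the receptor at the bottom. Replicate 2 lies rightmost for 12 of the 14 genes in the middle block.

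Marker lists moved between the same libraries, those of the labelled cells included. The T cell markers summed to 8678, 7874 and 8833 TPM in replicates 1, 2 and 3, and 5 of 6 were called, all lowest in replicate 2. The regulatory T cell markers summed to 2071, 2009 and 1862 TPM; 5 of 6 were called, of which 4 were highest in replicate 2 and all 5 lowest in replicate 3. Of the 14 called interferon-stimulated genes other than GTPases and receptor, 10 were lowest in replicate 1, beside 29.9% of all genes that differed. Over all 27 such genes, called or not, 12 were lowest in replicate 1 and 12 in replicate 3. The 5 erythroid genes summed to 908.58, 1270.09 and 1146.47 TPM in replicates 1, 2 and 3, and all 5 were highest in replicate 2 and lowest in replicate 1; none was at 0. The 8 macrophage and monocyte genes summed to 144.94, 112.38 and 165.46 TPM, lowest in replicate 2, with none at 0. The plasmacytoid dendritic cell genes summed to 179.50, 181.88 and 176.55 TPM, nearly all of it Bst2, itself a member. The part of cell composition in the members' differences was not tested.

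Of the other pathway lists, the same test called 10 of 11 signalling genes, 3 of 3 genes of the interferon-gamma receptor list and 6 of 12 tested sensing genes. It also called 9 of 11 tested other GTPases, 2 of 6 tested OAS and IFIT relatives and 23 of 30 tested other interferon-stimulated genes. The background was the same 44.9% of all genes tested, and 55.4% of genes with a mean count of 100 or more. That count was reached by 11 of 11 signalling genes, 9 of 12 other GTPases and 27 of 31 other interferon-stimulated genes. Ifng, the only ligand with enough counts to test, was called.

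The deposited transcript table placed most of the members' level in coding transcripts, with a few exceptions. Of the 42 members with a mean count of 100 or more, 38 have several annotated transcripts. The leading transcript took a median of 71.3% of the gene's TPM (SD 3.71, n = 3), 7 of the 38 had a leading share of at least 90% and 5 one below 50%. By estimated counts in place of TPM the median was 79.2%. Isg15, Ifit1, Ifit3 and Oas1a have 1 annotated transcript each.

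Transcripts annotated as targets of nonsense-mediated decay (NMD), the pathway that degrades messages with early stop codons, carried most of Mx1 and Gbp4. For Mx1 they held 70.7 ± 15.1% of TPM, with Mx1-205 (309 codons) alone at 55.2 ± 5.86%, and protein-coding transcripts held 15.3 ± 13.2%. For Gbp4, Gbp4-202 held 57.2 ± 3.02% of TPM and 81.2% of estimated counts, while Gbp4-201 (631 codons) held 6.35 ± 5.39%. Oasl2-205, of the same class, held 47.1 ± 3.07% of Oasl2 TPM and 59.9% of its estimated counts, so it carried most of Oasl2 by counts only. The gene-level values of these members therefore sum over transcripts of different classes.

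Protein-coding transcripts made up less than 50% of TPM in 4 of the 38 members, namely Mx1, Oasl2, Gbp4 and Ifi27. By counts they were Mx1, Oasl2, Gbp4 and Gbp6. The median protein-coding share was 90.01% by TPM and 94.6% by counts. In Ifi27, the transcript Ifi27-209 with a retained intron led with 41.6 ± 3.15% of TPM, but by counts the coding Ifi27-205 led with 39.3%, against 31.5% for Ifi27-209. For Parp14, a retained-intron transcript held 34.9% of TPM but 3.77% of counts, so the share depends on the unit there.

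**Figure D4:**
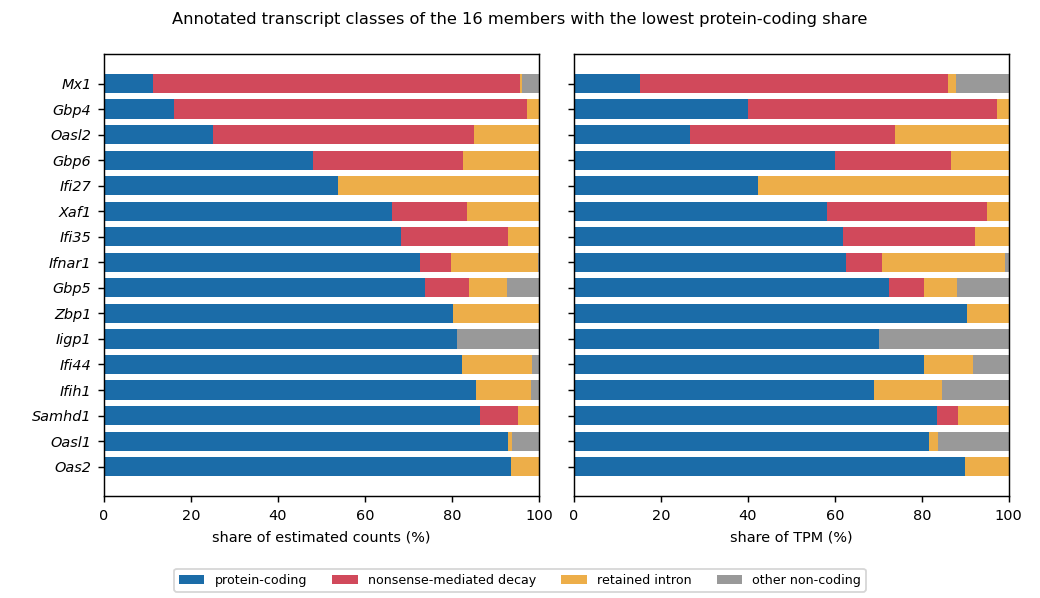
Share of each annotated transcript class in the estimated counts (left) and the TPM (right), as means over 3 libraries, for the 16 members with the lowest protein-coding share by counts. Bars run from 0 to 100%; NMD transcripts fill most of the bar for Mx1 and Gbp4 in both units.

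Ifnar2, Zbp1 and Irgm1 were divided among coding isoforms. Ifnar2-201 (513 codons), the long form, held 50.2 ± 3.35% of Ifnar2 TPM and Ifnar2-203 (248 codons) held 33.8 ± 4.54%; by counts the shares were 72.7% and 17.2%. The short forms of mouse Ifnar2 are known to include a soluble receptor. For Ifnar1, the coding Ifnar1-201 (590 codons) held 51.0 ± 0.908% and the retained-intron transcript Ifnar1-205 28.3 ± 1.56%. Zbp1-201 (411 codons) held 51.4 ± 0.592% and Zbp1-202 (187 codons) 39.0 ± 0.917% of TPM; by counts the shares were 62.6% and 17.7%. Irgm1 was split nearly evenly between Irgm1-201 (409 codons) at 51.2 ± 0.871% and Irgm1-202 (393 codons) at 48.6 ± 0.846%. The Ifnar2-203 share ranged between 30.4 and 38.9% over the libraries, whereas the Zbp1 and Irgm1 shares lay close together.

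Promoter windows were read for the members from the RefSeq promoter table (GRCm38.p6), which spans 250 bases before to 50 after each annotated start. The table holds 30 of the 43 members and 27025 genes in all. An ISRE-like match was defined as GAAANNGAAA on either strand, and a GAS-like match as TTCNNNGAA, which can overlap it by a few bases. An ISRE-like match was present in 18 of 30 members (60%), against 3.99% of all genes in the table. A GAS-like match was present in 14 of 30 (46.7%), against 9.55% of all genes. Both were found in 8 members and neither in 6. The members were chosen as interferon targets, so these shares describe them and are no test.

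Antiviral promoters are shown for the number and spacing of their matches. Each line gives 60 bases upstream of the start around a match, 5′ to 3′ on the strand of the gene, with the ISRE-like letters in capitals; TTTC pairs are the same match on the other strand.
Isg15 (chr4:156200850-156200909, - strand): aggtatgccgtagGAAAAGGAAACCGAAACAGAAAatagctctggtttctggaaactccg
Ifit1 (chr19:34640779-34640838, + strand): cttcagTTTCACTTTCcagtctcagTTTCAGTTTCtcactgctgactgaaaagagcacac
Ifit3 (chr19:34583382-34583441, + strand): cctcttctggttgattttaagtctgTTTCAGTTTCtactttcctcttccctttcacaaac
Oas1a (chr5:120907526-120907585, - strand): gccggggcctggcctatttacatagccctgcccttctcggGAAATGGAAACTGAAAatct
Rsad2 (chr12:26456538-26456597, - strand): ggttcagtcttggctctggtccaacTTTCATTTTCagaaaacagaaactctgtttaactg
Bst2 (chr8:71537562-71537621, - strand): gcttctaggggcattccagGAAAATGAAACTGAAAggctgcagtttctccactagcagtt

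Isg15 held 3 overlapping matches, the nearest starting 66 bases before its start, and Ifit1, Ifit3, Oas1a and Bst2 held 2 each, of which the second in Ifit3 lies outside the printed bases. Isg15 and Bst2 thus had denser matches than Rsad2, which had 1. Of the 19 other interferon-stimulated genes with a window, 9 had an ISRE-like match, in 5 of them within 100 bases before the start. No such letters were found in the windows of Ifnar1 and Ifnar2, both of which had a GAS-like match.

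All 9 GTPases with a window had an ISRE-like match, in 8 of them within 100 bases before the start, and 6 had a GAS-like match. The table has entries for Gbp2, Gbp3, Gbp5, Gbp7, Igtp, Irgm1, Irgm2, Tgtp1 and Tgtp2. The lines below are set in the same way, and show the likeness between the promoters of the IRG genes.
Igtp (chr11:58199496-58199555, + strand): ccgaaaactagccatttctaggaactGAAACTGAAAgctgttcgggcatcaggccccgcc
Irgm2 (chr11:58214888-58214947, + strand): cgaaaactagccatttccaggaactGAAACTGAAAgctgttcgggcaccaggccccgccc
Tgtp1 (chr11:48992289-48992348, - strand): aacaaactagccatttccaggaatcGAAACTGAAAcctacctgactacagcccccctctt
Tgtp2 (chr11:49064248-49064307, - strand): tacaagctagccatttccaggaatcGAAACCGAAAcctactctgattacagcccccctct
Irgm1 (chr11:48871421-48871480, - strand): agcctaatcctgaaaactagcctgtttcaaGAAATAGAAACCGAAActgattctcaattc
Gbp2 (chr3:142620579-142620638, + strand): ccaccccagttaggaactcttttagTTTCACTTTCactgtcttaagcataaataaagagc
Gbp3 (chr3:142559980-142560039, + strand): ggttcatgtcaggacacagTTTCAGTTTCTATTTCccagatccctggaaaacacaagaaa
Gbp7 (chr3:142530258-142530317, + strand): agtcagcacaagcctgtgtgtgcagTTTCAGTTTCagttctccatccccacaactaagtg

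Aligned on the match without gaps, Irgm2 and Igtp had the same base at 56 of 58 positions, Tgtp1 and Tgtp2 at 43, and Igtp and Tgtp1 at 38. After the match, the printed Tgtp1 and Tgtp2 bases run alike but shifted, so 43 understates the likeness of that pair. For Irgm2 and Igtp, near-identical bases around the match did not go with equal gene-level values. The likeness of the rest of their windows was not measured. Irgm2 averaged 71.5 TPM, against 504 TPM for Igtp. In GENCODE M21, Irgm2 and Igtp have annotated starts 62 bases apart on the same strand of chromosome 11. That Irgm2 start, at base 58199618, differs from the start of the printed window, which begins at base 58214888. The gene-level TPM of Irgm2 can therefore include transcripts that start beside Igtp. The 2 genes also share 162 exonic bases, so reads in the shared bases cannot be assigned to a single gene. The plot of motif matches shows the GTPase matches gathered before the start.

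**Figure D5:**
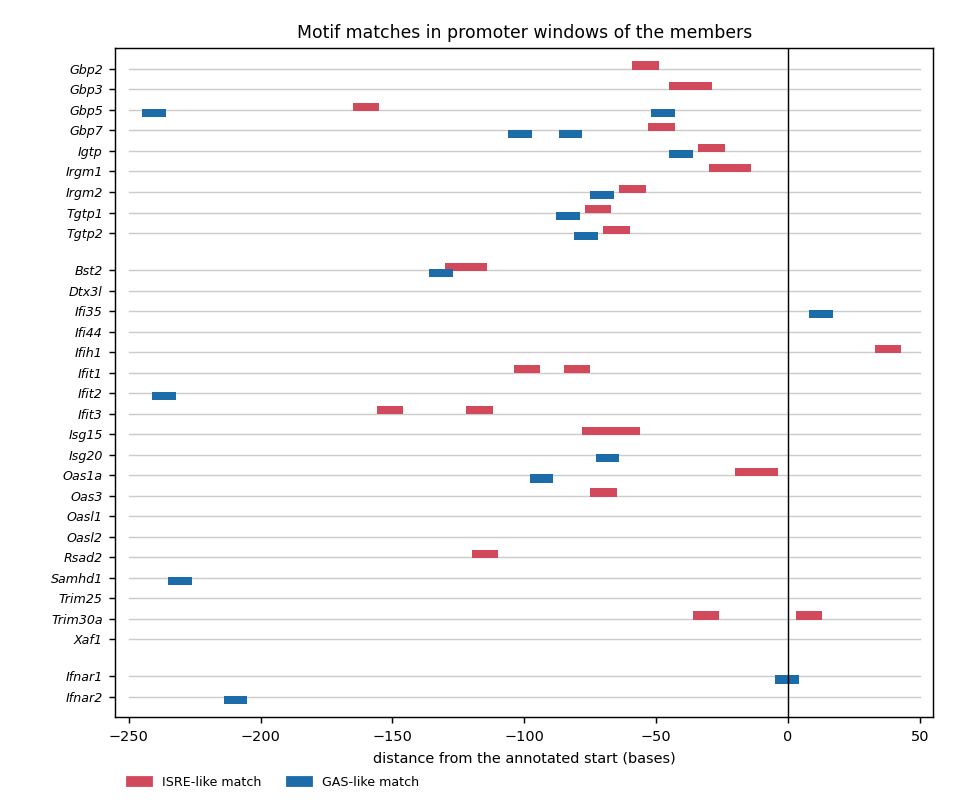
Position of ISRE-like (red) and GAS-like (blue) matches relative to the annotated start (0, in bases) in the promoter windows of 30 members, with GTPases at the top, other interferon-stimulated genes in the middle and the receptor at the bottom. All 9 GTPases carry an ISRE-like match, and 8 of these lie within 100 bases before the start.

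A match did not sort the members by level. The median was 68.8 TPM for members with an ISRE-like match and 86.0 TPM for those without. The receptor genes Ifnar1 (157 TPM) and Ifnar2 (99.9 TPM) are among those without and raise that median. Members with a match ranged between 5.90 TPM (Rsad2) and 504 TPM (Igtp). With 1 mismatch allowed, 27 of 30 members and 38.9% of all genes had a match. Within 100 bases before the start, 13 of 30 members and 1.14% of all genes had an exact one.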

How the data were processed

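The data are polyA RNA-seq libraries, 3 in 1 group, made from RNA sheared before library construction, per the labels. The authors deposited, per library, gene and transcript tables (mm10, GENCODE M21, per the file headers and contents lists) and a second gene table (GENCODE M4). Neither aligner, quantifier nor strand handling is stated there. Expected counts (estimated counts, which divide shared reads among genes), TPM and FPKM were deposited in the first tables; the second holds deposited whole-number counts for 22457 genes. The deposited bounds of a TPM interval, per the file headers, were treated as a score, and no printed value rests on them.

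Rows that name no gene (0.231, 0.271 and 0.189% of counts in replicates 1, 2 and 3) were left out of totals. The second tables held 30.3, 29.3 and 31.1% as many counts as the first. A count of 0 was given a limit of 3 counts; intervals and floors cover counting error only.

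Levels are deposited TPM with the SD over libraries. Libraries were compared by Pearson's chi-square test (2 degrees of freedom) on rounded estimated counts against library totals, at a summed count of 30 or more, adjusted by Benjamini-Hochberg over all 14641 genes tested. Tested on simulated data of 14641 genes, it recovered 64% of genes changed 1.25-fold and 100% changed 1.5-fold or more, and called 0.111% of unchanged genes. The simulated counts held counting noise alone, and the changed genes all had a mean count of 100 or more. The simulation therefore gives no error rate for libraries with other technical variation. Near-identical copies were found as members with at least 20% of their 50-base transcript windows in another gene. edgeR's TMM and DESeq2 size factors were used as other scalings only.

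All members are named. Values in every library are given for the 8 highest and 5 lowest by TPM, the 5 with the largest ratio among called members whose mean count was at least 100, and both receptor subunits. Of other pathway genes, the 3 highest and the lowest of each list are named, and all ligands; 1 gene that this rule names is not reported here. The members and lists were chosen with earlier results of these data known. Alternatives were other thresholds, FPKM, scalings, filters, a deviance statistic, pseudocounts, means, the second table, transcript counts, looser or narrower motif searches and leaving out each library. Statistics ran in Python 3.11.15 with scipy 1.17.1, pandas 2.3.3 and numpy 2.4.6, scalings in edgeR 4.0.16 and DESeq2 1.42.0 under R 4.3.3, and plots in matplotlib 3.10.9.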

Additional observations from a re-analysis of the deposited data

How the results depend on the processing

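Of 48 alternative settings, 37 left a result within its limits, 11 moved it and 0 reversed it. The median level of the members was 56.6 in FPKM and 68.4 TPM from a mean of log2 values, against 88.3 TPM. The second gene table, with fewer counts and relatively low counts for some abundant genes, called 8 of 41 members and 2520 of 10885 genes as different between libraries. Some abundant genes had nearly equal counts in its libraries, so calls of those genes can follow the library totals. Leaving out each library in turn called between 14 and 19 members, against 24, and between 3782 and 4701 genes, against 6575; fewer samples enter those tests. The lowest values, 14 members and 3782 genes, came without replicate 2. The GTPase difference was 1.16 (log2) with means of log2 values, and 1.098 without near-identical copies, an alternative chosen after seeing the data. The median leading transcript share was 79.2% by estimated counts and ranged between 67.4 and 71.8% with each library left out, against 71.3%; the cause was not tested. No paired analysis was possible because there is 1 group. Depth limits the lowest members most: Mx2 rested on a mean of 75.4 counts. With 1 biosample, no value here speaks to variation between animals.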
